A study of Mus musculus with 12 samples.

Results

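The genes described here are 35 genes of the kidney tubule and of tubule injury, read in a single-cell RNA data set whose target was a T cell. They were chosen by name, as genes that mark segments of the nephron or that tubule cells raise when injured, out of 18992 genes with at least 1 molecule in any of the libraries. By role, 8 genes serve uptake and transport in the proximal tubule, 11 belong to its metabolism or mark it otherwise, 5 mark the loop of Henle, distal tubule or collecting duct, 3 are common to tubule epithelium, and 8 are injury and stress genes. The cells were sorted for CD8, CD44 and PD-1 from the NZB/W F1 mouse, a hybrid strain in which lupus nephritis arises with age, and the study's methods name females. There were 3 groups, none with a treatment in its labels. Kidney cells came from mice of 28 weeks (28W kidney), in advanced disease, and spleen cells from mice of the same age (28W spleen) or of 12 weeks (12W spleen). The age of 28W spleen was taken from the sample titles, since another label field gives 12 weeks for it. There are 4 samples per group in the labels, but the tables pool them, so each group is 1 library with no replicate.

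The tubule is a single layer of epithelium that takes up filtered solutes. Its proximal part reabsorbs most filtered phosphate, glucose, protein and water, makes glucose, and is rich in mitochondria. The thick limb of the loop secretes uromodulin and moves salt, the distal tubule takes up more salt and calcium, and the collecting duct sets water loss. When tubule cells are damaged they are known to raise genes such as *Havcr1* (KIM-1) and *Lcn2* (NGAL), which are used as urinary injury markers, along with *Spp1* (osteopontin), clusterin and keratins. T cells do not carry out these transport functions, although some of the 35 genes, such as *Ass1*, *Atp1b1* and *Spp1*, are also known outside the kidney.

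Each library held 6481 to 7135 cells in 10 to 12 clusters, with 29937384 to 34742303 unique molecular identifiers (UMIs), the tags that count captured transcript molecules. A level is given in counts per 1000000 UMIs (CPM) of the library or of the cluster named. Each UMI stands for 1 molecule tagged at its 5′ end, so levels are not scaled by gene length. A count of 0 allows up to 3 UMIs, which is 0.1002 CPM in 28W kidney, and 0.0937 and 0.0864 CPM in the 28W and 12W spleens. Ranges in parentheses are 95% intervals for counting error only, without the variation between mice or preparations. The 28W kidney library shared 66 cell barcodes with 28W spleen and 56 with 12W spleen, of which 3 and 1 lay in its cluster 7. Cluster numbers are the authors' own within each library.

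Kidney clusters 7 and 2, which held most of the tubule gene UMIs, stood apart from the other kidney clusters in their mitochondrial share. Cluster 7 held 577 cells with 2570 UMIs per cell and 4.26% mitochondrial UMIs, and cluster 2 held 806 cells with 1200 UMIs per cell and 10.8% mitochondrial UMIs. Mitochondrial UMIs were at 0.515% to 1.496% in the other 10 kidney clusters. Tubule genes did not lead cluster 7. Of the 10 genes with the highest log2 ratio of cluster 7 over the other kidney cells, 9 were immunoglobulin segments and the other was *Gm20730*. The first of the 35 genes, *Spink1*, stood at rank 16, and the leading 40 genes held 10 of the 35 and 18 immunoglobulin genes. For this reason cluster 7 is called by its number here and not by a cell type.

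The other cell markers in the same clusters were as follows. Immunoglobulin genes took 7.17% of the UMIs of cluster 7, 13.4% of cluster 2 and 2.95% of cluster 8, against 0.0184% in cluster 1, the lowest share. A plasma cell list of 6 genes summed to 6537 CPM in cluster 7 and 15333 in cluster 2, most of it *Jchain*, the joining chain of secreted antibodies, and all 6 were present in both clusters. The T cell list of 10 genes was present too, at 6059 CPM or 15.6 UMIs per cell in cluster 7 and 4657 CPM or 5.59 UMIs per cell in cluster 2. Over the other 10 clusters the T cell list ran from 2220 CPM in cluster 12 to 12038 in cluster 6. The part of these markers in the tubule gene levels was not tested. Because only sums over clusters were used, many cells with few tubule UMIs and few cells with many cannot be told apart. The immunoglobulin and plasma cell genes were looked at after the levels had been seen.

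**Figure D1:**
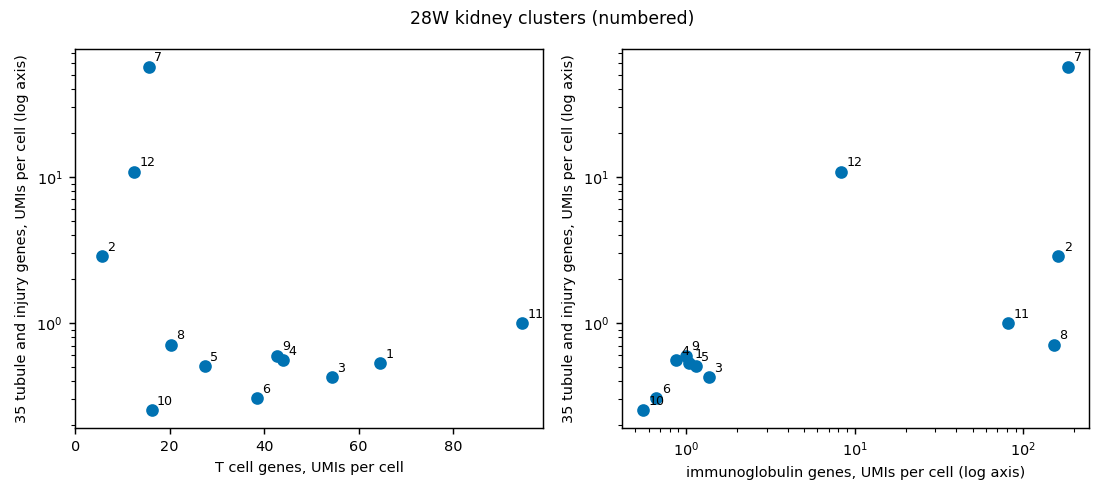
Mean UMIs per cell of the 35 tubule and injury genes (vertical, log axis) against those of 10 T cell genes (left, linear axis) and of all immunoglobulin genes (right, log axis) in the 12 clusters of 28W kidney, 1 point per cluster with its number. Cluster 7 stands highest at 56.9 UMIs per cell, and it is also the highest for immunoglobulin genes, while clusters 8 and 11 have many immunoglobulin UMIs but under 1 tubule gene UMI per cell.

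To ask in which organ these genes were found, the kidney library was set against the spleen of the same age. In 28W kidney, 33 of the 35 genes had at least 1 UMI, as did 17790 of all 18992 genes, and *Aqp2* and *Calb1* had none. In 28W spleen 18 of the 35 had UMIs and in 12W spleen 17, where 16194 and 16110 of all genes did. Of the 33 seen in kidney, 13 had 0 UMIs in both spleens. The share of all kidney genes with 0 UMIs in both spleens was not computed. Summed over the 35 genes there were 40028 kidney UMIs, and 4418 and 3908 in the 28W and 12W spleens. Of the 31 genes with at least 10 UMIs over the kidney and 28W spleen libraries, 24 were at least 2-fold higher in kidney, while 8.05% of all 14373 genes tested were. None was at least 2-fold lower, where 1.13% of all genes were. The median log2 ratio of the 31 was 3.30, against 0.11 for all genes. There is 1 library per organ, so these differences have no replicate check and no p-value. The methods describe collagenase digestion for kidney only, and organ and preparation cannot be told apart. Fewer cells of a type and less RNA per cell cannot be told apart at the level of a library either.

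Most of this difference lay in cluster 7. It held 8.09% of the kidney cells and 32820 of the 40028 UMIs of the 35 genes, which is 82.0% (81.6 to 82.4). Of the 29 genes with at least 20 kidney UMIs, 26 had over 50% of them in cluster 7 and 19 had over 80%, with a median of 85.7%. The matching counts over all genes were not computed. Over all genes together, cluster 7 held 1483170 of the 29937384 kidney UMIs. Since the clusters were made from the expression of the same cells, these shares are a description and not a test. Without cluster 7, 17 of 29 genes were at least 2-fold higher in kidney than in 28W spleen (5.85% of all genes) and *Atp1b1* was lower (1.23%). Without clusters 2 and 7, 8 of 25 remained higher (5.53% of all genes). These were *Gatm*, *Spp1*, *Fxyd2*, *Gpx3*, *Fbp1*, *Slc34a1*, *Miox* and *Spink1*, and *Atp1b1* was again lower (1.32%). The clusters left include cluster 12, which had the highest summed level of the 35 genes among them. It was at 1922 CPM, against a median of 126.6 over these clusters. Cluster 12 also carried a list of macrophage and monocyte genes at 16931 CPM. The counts were not repeated without it.

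**Figure D2:**
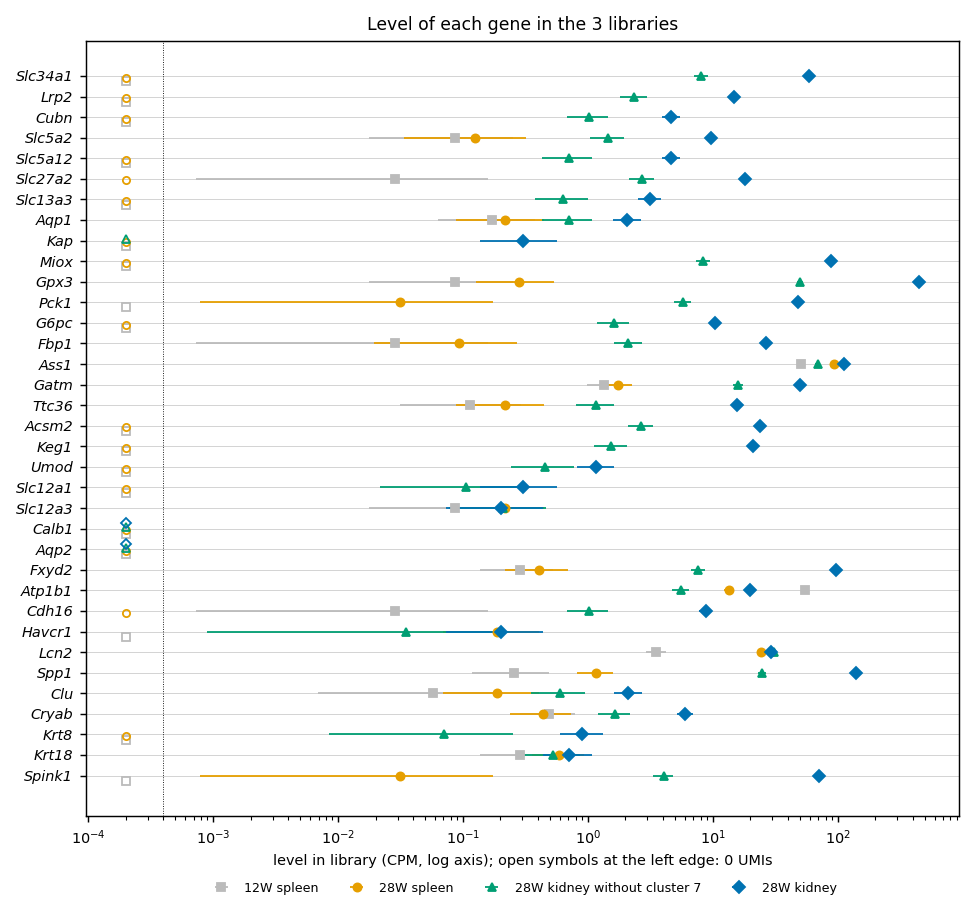
Level of each of the 35 genes (CPM, log axis) in 12W spleen, 28W spleen, 28W kidney and 28W kidney without cluster 7, with bars for the 95% counting interval, 1 library per group. Open symbols at the left edge mark 0 UMIs. For most proximal tubule genes the kidney level without cluster 7 lies between the whole kidney level and the spleens, whereas *Ass1*, *Atp1b1* and *Lcn2* lie close together in kidney and 28W spleen.

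The uptake and transport genes of the proximal tubule were all at least 2-fold higher in kidney, in 8 of 8 (8.05% of all genes). *Slc34a1*, the sodium-phosphate cotransporter of the brush border (GRCm38 chromosome 13, 55398187 to 55415592), had 1770 UMIs in 28W kidney and 0 in each spleen. This is 59.1 CPM (56.4 to 61.9), at least 631-fold higher than 28W spleen with its 0 set at 3 counts. Within kidney, 1541 of its UMIs were in cluster 7 (1039 CPM), 195 in cluster 2 (202 CPM) and 34 in the other 10 clusters (1.24 CPM). The other 10 clusters, with most of the kidney cells, thus held few of its UMIs.

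The endocytic receptors for filtered protein behaved alike. *Lrp2* (megalin, chromosome 2, 69424340 to 69586065) had 440 kidney UMIs, of which 373 were in cluster 7 and 56 in cluster 2, and *Cubn* (cubilin) had 139, of which 110 and 20 were. Neither had a UMI in either spleen. Of the transporters of small solutes, *Slc5a2*, the glucose transporter SGLT2, was at 9.69 CPM in kidney, with 0.125 in 28W spleen and 0.0864 in 12W spleen. *Slc27a2*, a fatty acid transporter, was at 18.3 CPM in kidney, with 0 in 28W spleen and 0.0288 in 12W spleen. *Slc5a12*, which carries lactate, and *Slc13a3*, which carries dicarboxylates, had 140 and 94 kidney UMIs and none in the spleens. The water channel *Aqp1* was the least confined of the 8 to cluster 7, with 42 of 62 kidney UMIs there, 7 in cluster 2 and the other 13 in cluster 11. It also had 7 UMIs in 28W spleen and 6 in 12W spleen, and in kidney it was 9.47-fold (4.33 to 24.5) higher than in 28W spleen.

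The metabolic genes held the largest share of the UMIs, 20722 of the 32820 in cluster 7 (63.1%). Of those 20722 UMIs, 11938 were of a single gene, *Gpx3*. Of the 10 metabolic genes tested, 9 were at least 2-fold higher in kidney (8.05% of all genes). *Gpx3*, the secreted glutathione peroxidase that the proximal tubule releases into plasma (chromosome 11, 54902453 to 54910377), had 13354 UMIs in 28W kidney, with 9 in 28W spleen and 3 in 12W spleen. It was at 8049 CPM (7905 to 8195) in cluster 7, 927 in cluster 2, 114 in cluster 12 and 4.89 to 56.8 in the remaining 9. *Gpx3* had UMIs in every kidney cluster, and without clusters 2 and 7 it was still among the 8 genes above 28W spleen. *Miox*, which starts the breakdown of inositol, had 2627 kidney UMIs and 0 in both spleens, and was at 1611 CPM in cluster 7, 160 in cluster 2 and 2.98 over the other 10 clusters.

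The enzymes of gluconeogenesis were found together in clusters 7 and 2. *Pck1*, which forms phosphoenolpyruvate, was at 870 CPM in cluster 7, 144 in cluster 2 and 0.910 in the other 10. *Fbp1*, fructose bisphosphatase, was at 496, 21.7 and 1.42 CPM and *G6pc*, which releases free glucose, at 179, 36.2 and 0.400 CPM in the same order. In the spleens the 3 enzymes had 0 to 3 UMIs per library. *Acsm2*, a medium-chain acyl-CoA synthetase, had 711 kidney UMIs, *Keg1* 629 and *Ttc36* 471, and 89.3%, 93.0% and 93.0% of these were in cluster 7. *Acsm2* and *Keg1* had no UMI in either spleen. *Kap*, named as a kidney androgen-regulated protein, had 9 UMIs, all in cluster 7.

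The arginine enzyme *Ass1* was unlike the other metabolic genes tested in that it was not at least 2-fold higher in kidney. *Ass1*, which makes argininosuccinate on the way to arginine, had 3362 UMIs in 28W kidney, with 3012 in 28W spleen and 1770 in 12W spleen. Cluster 7 was highest at 938 CPM, but *Ass1* was at 39.8 to 140 CPM in the other 11 kidney clusters, 43.3 to 147 in the clusters of 28W spleen and 21.1 to 142 in those of 12W spleen. It was found in every cluster of every library, and in whole kidney it was 1.19-fold (1.14 to 1.25) above 28W spleen. *Gatm*, the first enzyme of creatine synthesis, was at 703 CPM in cluster 7, 70.3 in cluster 2 and 307 in cluster 12. It was 28.6-fold (21.9 to 38.0) higher in kidney than in 28W spleen, with 69.7% (67.3 to 71.99) of its kidney UMIs in cluster 7. Cluster 12 carried the macrophage and monocyte list of 10 genes at 16931 CPM, against 478 in cluster 7. In 28W spleen, 37 of 56 *Gatm* UMIs lay in cluster 10, where immunoglobulin genes took 5.70% of UMIs.

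**Figure D3:**
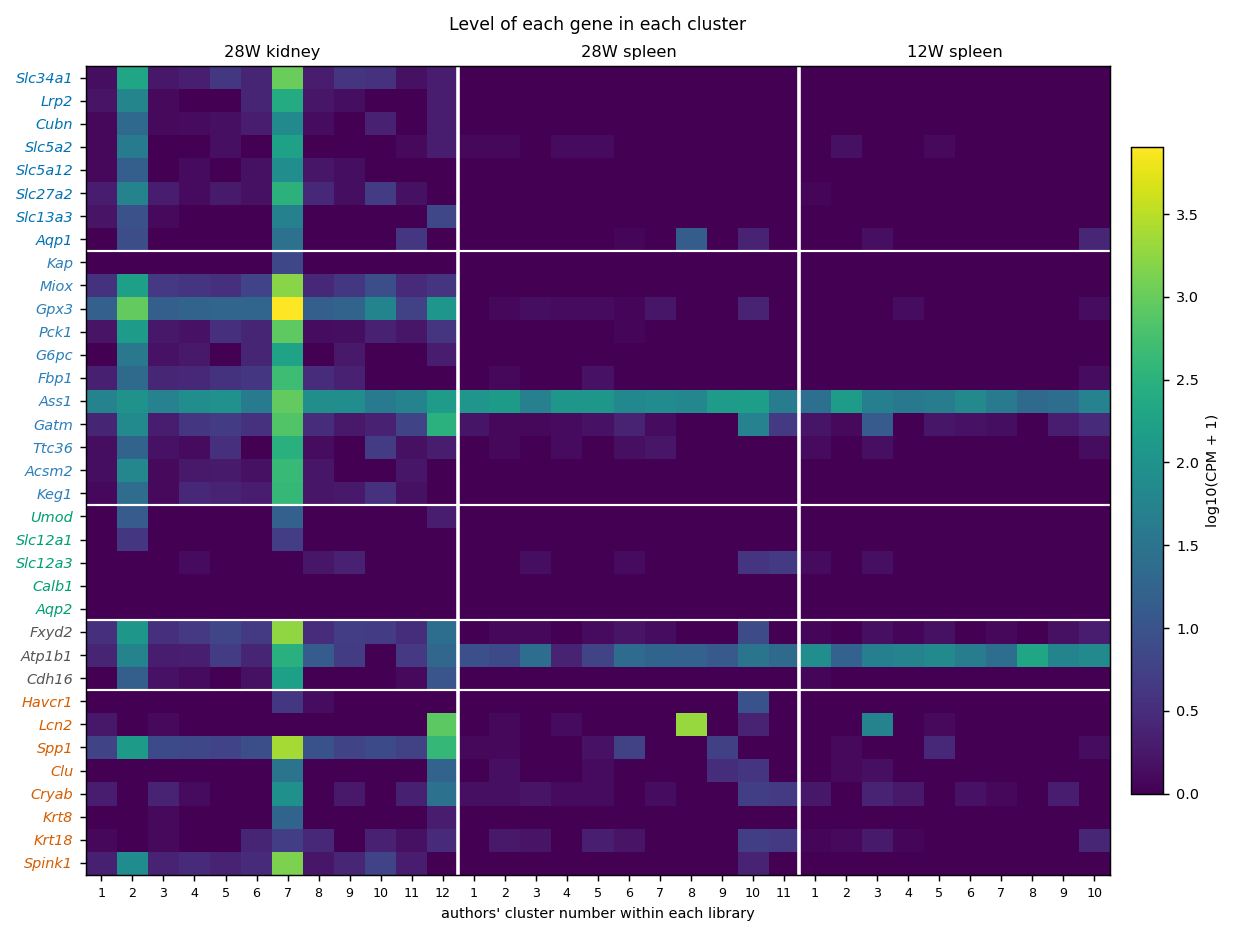
Level of each gene (rows, colour as log10 of CPM + 1) in each authors' cluster (columns) of 28W kidney, 28W spleen and 12W spleen, with gene names coloured by role. Cluster 7 of kidney is bright for the proximal tubule rows and cluster 2 follows at lower level, while *Ass1* and *Atp1b1* run across all libraries and *Lcn2* is bright in kidney cluster 12, 28W spleen cluster 8 and 12W spleen cluster 3.

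Genes of the loop, distal tubule and collecting duct were scarce. *Umod*, uromodulin (chromosome 7, 119462711 to 119479282), had 35 UMIs in 28W kidney, 22 in cluster 7, 12 in cluster 2 and 1 in cluster 12, and 0 in both spleens. *Slc12a1*, the salt cotransporter of the thick limb, had 9 UMIs, 6 in cluster 7 and 3 in cluster 2. *Slc12a3*, the salt cotransporter of the distal tubule, had 6 UMIs in kidney, none of them in cluster 7 or 2, and 7 in 28W spleen, a ratio of 0.917 (0.255 to 3.19). *Calb1*, a calcium-binding protein of the distal tubule, and *Aqp2*, the water channel of the collecting duct, had 0 UMIs in all 3 libraries. The 5 genes made up 0.0853% (0.0567 to 0.123) of the UMIs of the 35 genes in cluster 7, where the 8 proximal transport genes made up 9.08%. How the sort and tissue preparation sampled each segment was not tested.

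Among genes of the whole tubule, *Fxyd2*, the gamma subunit of the sodium pump, had 2899 UMIs in 28W kidney, with 13 in 28W spleen and 10 in 12W spleen. It was at 1808 CPM in cluster 7, 116 in cluster 2 and 3.86 in the other 10 clusters. *Cdh16*, kidney cadherin, had 264 kidney UMIs, 235 of them in cluster 7, and 0 and 1 in 28W and 12W spleen. *Atp1b1*, the beta subunit of the same pump, was present in all 3 libraries, at 20.04 CPM in 28W kidney, with 13.6 in 28W spleen and 54.6 in 12W spleen. Cluster 7 held 73.7% of its kidney UMIs, and kidney without cluster 7 was at 5.55 CPM, below 28W spleen.

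The injury and stress genes were mixed, with 4 of 8 at least 2-fold higher in kidney (8.05% of all genes). *Spp1*, osteopontin (chromosome 5, 104435118 to 104441050), had 4223 UMIs in 28W kidney, with 37 in 28W spleen and 9 in 12W spleen. Its level was 2372 CPM (2294 to 2452) in cluster 7, 404 in cluster 12, 131 in cluster 2 and 4.64 to 8.56 in the remaining 9 clusters. *Spink1*, a secreted trypsin inhibitor, had 2112, 1 and 0 UMIs in the same libraries, with 94.6% (93.5 to 95.5) of the kidney UMIs in cluster 7. *Cryab*, a small heat shock protein, had 181 kidney UMIs, of which 134 were in cluster 7, 29 in cluster 12 and 0 in cluster 2. *Clu*, clusterin, had 63, of which 46 were in cluster 7 and the other 17 in cluster 12.

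The urinary injury markers were scarce or absent in cluster 7. *Havcr1*, which encodes KIM-1 (chromosome 11, 46735080 to 46779578), had 6 UMIs in 28W kidney, 5 of them in cluster 7, and 6 in 28W spleen, all in cluster 10. *Lcn2*, which encodes NGAL (chromosome 2, 32384633 to 32388252), had 877 UMIs in 28W kidney, with 782 in 28W spleen and 123 in 12W spleen. Of these, 872 lay in kidney cluster 12, 779 in cluster 8 of 28W spleen and 122 in cluster 3 of 12W spleen. Kidney clusters 7 and 2 had 0 *Lcn2* UMIs. *Lcn2* is also a granule protein of neutrophils, and *Ngp*, another neutrophil granule gene that was looked at after the levels were seen, had 3287 UMIs in that kidney cluster and 1760 and 257 in those of the 28W and 12W spleens, against 0 to 8 in any other cluster. The part of such cells in the *Lcn2* level was not tested. The keratins *Krt8* and *Krt18*, which form filaments in simple epithelium, had 27 and 21 kidney UMIs. Of these, 25 *Krt8* and 6 *Krt18* UMIs were in cluster 7, and *Krt18* had 19 UMIs in 28W spleen, a ratio of 1.18 (0.605 to 2.32).

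**Figure D4:**
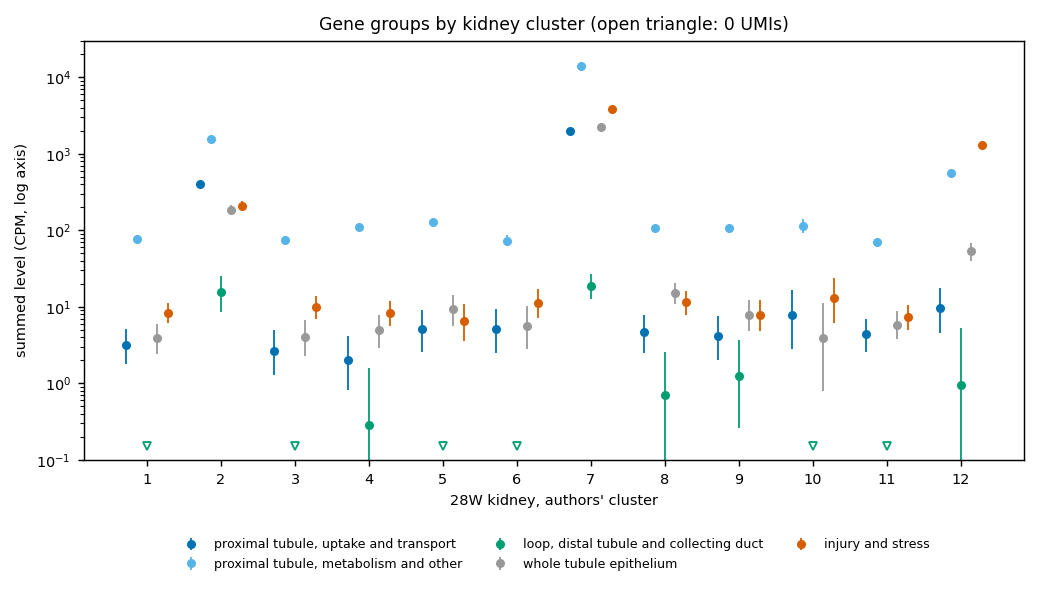
Summed level (CPM, log axis) of the 5 gene groups in each of the 12 clusters of 28W kidney, with 95% counting intervals and open triangles for 0 UMIs. Cluster 7 is highest for every group, cluster 2 is next for the transport, metabolic, distal and whole tubule groups, and cluster 12 is next for injury and stress genes at 1290 CPM.

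Set against the other kidney clusters, 28 of 29 genes were at least 2-fold higher in cluster 7, where 14.7% of all genes were, and *Lcn2* was at least 2-fold lower, where 9.83% were. The clusters were made from the expression of the same cells, so this is a description of the cluster and not a test. The median log2 ratio of the 29 genes was 6.11. Cluster 2, set against the 10 clusters other than 2 and 7, had 23 of 28 genes at least 2-fold higher (18.4% of all genes) and *Lcn2* and *Cryab* lower (17.6%). In cluster 2 the 35 genes came to 2.85 UMIs per cell, in cluster 12 to 10.8 and in cluster 7 to 56.9. In clusters other than 2, 7 and 12 they summed to 87.4 to 148 CPM, and the gene with most UMIs was *Ass1* in each of these 9 except cluster 10, where it was *Gpx3*.

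The genes did not stand in the same proportion in clusters 2 and 7. Taking the 27 genes with at least 20 UMIs in cluster 7, the level in cluster 2 was a median 11.5% of that in cluster 7. The transport genes were at 16.1% to 27.9%, with a median of 21.1%, and the metabolic genes at 4.37% to 20.2%, with a median of 10.2%. Within the transport genes, intervals overlapped from *Slc13a3* at 16.1% (6.72 to 33.4) to *Cubn* at 27.9% (16.4 to 45.2). *Spp1* was at 5.54% and *Spink1* at 5.83%, below *Slc34a1* at 19.4% (16.6 to 22.5). *Clu*, *Cryab* and *Krt8* had 0 UMIs in cluster 2, and for *Cryab* the interval reached 4.28%. *Umod* was at 83.6% (37.7 to 176), from 12 and 22 UMIs. In the make-up of their UMIs, transport genes were 17.0% (15.5 to 18.6) of the 35 genes in cluster 2 and 9.08% (8.77 to 9.40) in cluster 7, and injury genes 8.84% (7.71 to 10.1) and 17.5% (17.1 to 17.9). These intervals do not overlap, but they cover counting error within a single library. The injury share rests mostly on 2 genes. Of the 5731 injury gene UMIs in cluster 7, 3518 were *Spp1* and 1997 *Spink1*, while *Havcr1* had 5 and *Lcn2* 0. Of the 203 in cluster 2, 127 were *Spp1* and 76 *Spink1*. This comparison and its minimum of 20 UMIs were chosen after the levels were seen.

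**Figure D5:**
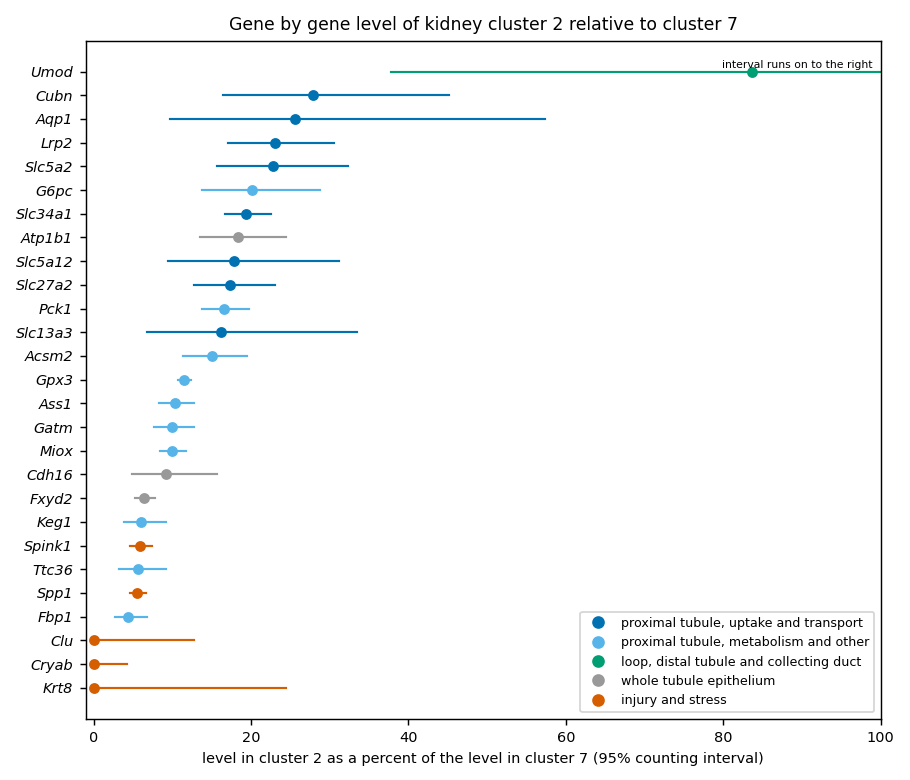
Level of each of 27 genes in kidney cluster 2 as a percent of its level in cluster 7 (horizontal, linear axis), with 95% counting intervals and colours by role. Transport genes lie between 16.1% and 27.9%, *Clu*, *Cryab* and *Krt8* lie at 0, and the interval of *Umod* runs past the axis to 176%.

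Age was compared in spleen, where few of these genes were found. Of the 12 genes with at least 10 UMIs over both spleens, 1 was at least 2-fold higher at 28 weeks (1.7% of all genes) and 1 at least 2-fold lower (0.867%). *Lcn2* was at 3.54 CPM in 12W spleen and 24.4 in 28W spleen, a ratio of 6.90 (5.70 to 8.41), and in each spleen all but 1 to 3 of its UMIs lay in a single cluster. *Atp1b1* was at 54.6 CPM in 12W spleen and 13.6 in 28W spleen, a ratio of 0.248 (0.223 to 0.275). Its clusters ranged from 15.997 to 200.1 CPM at 12 weeks and from 1.40 to 30.4 at 28 weeks. *Ass1* was 1.85-fold (1.74 to 1.96) and *Spp1* 4.46-fold (2.11 to 10.5) higher at 28 weeks, the latter from 37 against 9 UMIs, of which 31 lay in cluster 6 of 28W spleen. These 2 did not reach 2-fold on the scale with 1 CPM added. Age and library cannot be told apart, with 1 library at each.

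Other genes of the same structures were counted in the same way, in lists chosen with earlier results of these data known. Over all genes, 14.7% were at least 2-fold higher in cluster 7, and 8.05% in whole kidney than in 28W spleen. Of 30 further proximal tubule genes, all 27 with enough UMIs were at least 2-fold higher in cluster 7, and 22 of 27 were higher in whole kidney than in 28W spleen. *Slc4a4*, the bicarbonate exit route of the proximal tubule, had 475, 53 and 10 UMIs in cluster 7, cluster 2 and the other 10 clusters. *Slc22a8*, an organic anion transporter, had 300 UMIs in cluster 7. Of 15 further loop and distal genes, 7 of 7 tested were higher in cluster 7, led by *S100g* with 141 UMIs, a calcium-binding protein, while 1 of 7 was at least 2-fold higher in whole kidney than in 28W spleen. Of 13 further collecting duct and intercalated cell genes, 3 of 5 were higher in cluster 7, led by *Atp6v1g3*, a proton pump subunit, with 55 UMIs, and 0 of 8 in whole kidney. With so few genes, the organ counts of 1 of 7 and 0 of 8 cannot be set apart from the 8.05% of all genes.

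Promoters were searched for short motifs, because the proximal tubule genes were found together in clusters 7 and 2. RefSeq start sites on GRCm38.p6 gave 30 promoters for 26 of the 35 genes, and 250 bases before each start were read on both strands. The letters GTTAAT, part of the site of HNF1 factors, which act in proximal tubule and liver, were in 8 of 30 promoters (26.7%), against 6.43% of all 32851 promoters. Of the other 6 motifs, the TATA box TATAAA was in 6 (12.4% of all), the E-box CACGTG in 3 (6.02%) and CAAAGT, part of the HNF4 site, in 2 (12.6%). The longer HNF4 letters CAAAGTCCA (0.384%), the cAMP response element TGACGTCA (1.55%) and the whole HNF1 site, GTTAAT then any base then ATTAAC (0.00913%), were in none. The short HNF1 and HNF4 motifs are contained in the longer ones. TATAAA lay in promoters of *Spp1*, *Kap*, *Acsm2*, *Slc12a3*, *G6pc* and *Miox*. A match is only a run of letters, and no binding was measured. The motif to print was chosen after all 7 had been counted, as the one found in most of these promoters.

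Of the 8 genes with GTTAAT, 6 had over 100 UMIs in cluster 7, and windows of 60 bases around their match are shown 5′ to 3′ in the direction of the gene to let the surroundings be compared. Capitals mark GTTAAT or, where it lies on the other strand, ATTAAC. The match began 192 bases before the start in *Pck1*, 194 in *Spp1*, 166 in *Acsm2*, 221 in *G6pc*, 61 in *Slc34a1* and 142 in *Miox*. The *Slc34a1* promoter held 2 matches, of which 1 is shown, and the transcribed bases after its RefSeq start did not lie in a GENCODE transcript. The *Slc34a1* window lies inside the annotated span of the gene, 55398187 to 55415592, and not upstream of it. The other 2 genes, *Umod* and *Havcr1*, had 22 and 5 UMIs in cluster 7.
Pck1, chr2:173152854-173152913: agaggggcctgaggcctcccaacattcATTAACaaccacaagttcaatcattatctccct
Spp1, chr5:104434890-104434949: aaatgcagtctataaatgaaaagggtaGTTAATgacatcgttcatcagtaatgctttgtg
Acsm2, chr7:119554147-119554206: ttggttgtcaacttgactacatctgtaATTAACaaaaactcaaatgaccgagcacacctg
G6pc, chr11:101367468-101367527: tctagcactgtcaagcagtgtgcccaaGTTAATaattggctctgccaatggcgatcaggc
Slc34a1, chr13:55399560-55399619: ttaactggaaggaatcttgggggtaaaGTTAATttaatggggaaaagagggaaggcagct
Miox, chr15:89334304-89334363: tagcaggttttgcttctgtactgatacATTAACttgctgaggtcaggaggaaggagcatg
In cluster 7 these 6 genes ran from 179 CPM (*G6pc*) to 2372 (*Spp1*), with *Slc34a1* at 1039. Whether the match goes with level was not tested, since genes without it were not set beside them.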

How the data were processed

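The authors deposited, per library, cluster numbers of the cell barcodes and each gene's mean UMI count per cluster, which they scaled within the library to its median UMI count per cell. The same tables hold the authors' log2 fold change and p-value of each cluster against the rest, which were not used. The labels name the 10x Genomics 5′ kit, Cell Ranger 2.1.1 and R 3.6.1, and the study's methods name GRCm38. Cell filters and doublet treatment are not given in the sources used here, and no doublet caller was run. Clonotypes were not analysed here.

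Each column held whole multiples of its smallest value, the value of 1 UMI (100% within 0.001), and was divided by it. CPM was computed per library or cluster total. The 5′ kit tags 1 end of each molecule, so counts were not divided by gene length. Log2 ratios had 1 CPM added. Genes needed 10 UMIs over both sides, and at least 2-fold was counted. Intervals were exact Poisson for levels and exact binomial for shares and ratios, at 95%. Groups came from sample titles. All 35 genes were accounted for, and the 26 with at least 50 kidney UMIs were given levels. The 35 genes and the 12 other lists of 136 genes were chosen with earlier results of these data known, and some of these other genes are not reported here. Alternatives were other pseudocounts, scalings, minimums, folds and clusters left out. Coordinates came from GENCODE M21 and sequences from RefSeq. Steps were tested on simulated data, in Python 3.11.15 with pandas 2.3.3, scipy 1.17.1 and numpy 2.4.6, and figures drawn with matplotlib 3.10.9.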

Additional observations from a re-analysis of the deposited data

How the results depend on the processing

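No paired analysis was possible because each group is 1 pooled library whose columns carry no replicate number, and no replicate could be left out. The count of 24 genes at least 2-fold higher in kidney than in 28W spleen became 15 with 10 CPM added and 8 without kidney clusters 2 and 7, and was 17 to 26 under the other 7 alternatives. The 2 genes that differed by age became 4 with 0.1 CPM added and 1 at 4-fold. The share of the UMIs in cluster 7, 82.0%, was 83.3% without the injury and stress genes, 78.3% without *Gpx3*, 81.5% with deposited means weighted by cells and 85.7% as the median of single genes. The counts for clusters 7 and 2 stayed within 1.5 times. By organ and in cluster 7, of the 26 genes with at least 50 kidney UMIs, none that was at least 2-fold different changed direction, but 3 smaller organ differences did. The log2 ratio of *Atp1b1* went from 0.53 to -1.15 without cluster 7 and -1.59 without clusters 2 and 7, that of *Ass1* from 0.25 to -0.44 and -0.46, and that of *Lcn2* from 0.25 to -2.38 with deposited means averaged over cells. Cluster 7 held 73.7% of the kidney UMIs of *Atp1b1* and 41.4% of those of *Ass1*. The main *Lcn2* clusters had 5643 UMIs per cell in kidney (cluster 12) and 1020 in 28W spleen (cluster 8). No further cause of these shifts was tested. The size of the ratios was less stable than their direction. Over the 26 genes and all alternatives, the log2 ratio by organ was counted as moved beyond its main counting interval in 148 cases. It was counted as the same in 86. For cluster 7 it was counted as moved in 93 cases and as the same in 115. Scaling by the median gene moved ratios by 0.078 on the log2 scale by organ, -0.10 by age, -0.25 for cluster 7 and -0.33 for cluster 2. Depth limits the distal genes, *Havcr1*, *Kap* and the keratins, which had 0 to 35 kidney UMIs.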

Other observations

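Kidney cells other than tubule were looked for with further lists. Endothelial and stromal genes were led by cluster 12, at 889 and 350 CPM, and not by cluster 7, at 87.0 and 28.3 CPM. *Plvap*, a protein of endothelial windows, had 385 of 516 kidney UMIs in cluster 12 and 39 in cluster 7. *Tagln*, a smooth muscle gene, was instead at 35 UMIs in cluster 7 and 2 in cluster 12. Podocyte genes were near absent in cluster 7, with 0 of 3 tested at least 2-fold higher (14.7% of all genes). Among 16 further tubule injury genes, 7 of 10 tested were at least 2-fold higher in cluster 7 (14.7% of all genes). Only 1, *Ccl2*, was lower (9.83% of all genes), with 1 of 126 kidney UMIs there. *Igfbp7* had 2005 of its 2356 kidney UMIs there, and *C3*, the central complement protein, 113 of 230, although *C3* was at 108 CPM in cluster 12 and 76.2 in cluster 7. *Plin2*, a lipid droplet protein that was not among the 7, was at 152 CPM in cluster 12 and 47.2 in cluster 7. The B cell list was at 4740 CPM in cluster 7 and 4241 in cluster 2, the red cell list at 60.7 and 2147, and the heat shock and dissociation list at 2339 and 4804.

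The level in cluster 2 as a percent of that in cluster 7 was also set beside the longest annotated coding transcript of each gene. Over 27 genes of the same cells, Spearman's rho was 0.70, and Pearson's r on log values was 0.49. The median was 18.6% for 6 genes of at least 3000 bases, 11.5% for 15 of at least 1500 but under 3000 bases and 5.72% for 6 under 1500 bases. Role and length go together in this list, since *Lrp2* and *Cubn* are long transport genes and *Spink1* and *Fxyd2* are short. The length bins were chosen after the ratios were seen, and no cause was tested.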
